A study of Mus musculus with 4 samples.

Results

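Oxidative phosphorylation is carried out by complexes I to V of the inner mitochondrial membrane, and most of their subunits are encoded in the nucleus. The genes described here are those nuclear subunits, chosen by symbol alone: every gene whose symbol starts with Ndufa, Ndufb, Ndufc, Ndufs, Ndufv, Uqcr, Cox4i, Cox5, Cox6, Cox7, Cox8 or Atp5, and Sdha, Sdhb, Sdhc and Sdhd, without the Ndufaf assembly factors and pseudogenes. The rule found 85 of the 31053 genes in the count matrices, which carry 84 symbols because Atp5o has 2 gene identifiers. By name they fall into 38 genes of complex I, 4 of complex II, 8 of complex III, 18 of complex IV and 17 of complex V. Symbols are not always a guide to the complex: Ndufa4 is now counted as a complex IV subunit, Cox7a2l is a supercomplex factor and Atp5s is coupling factor B, and all were kept under their symbols.

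Complex I (NADH dehydrogenase) and complex II (succinate dehydrogenase) feed electrons into the chain, complex III (the cytochrome bc1 complex) and complex IV (cytochrome c oxidase) pass them to oxygen, and complex V (ATP synthase) uses the resulting proton gradient to make ATP. The catalytic core of complexes I, III, IV and V is partly encoded by mitochondrial DNA, so each of these enzymes is assembled from both genomes, whereas complex II is wholly nuclear. In the kidney, sodium reabsorption consumes much of the ATP, and the proximal tubule (PT), the thick ascending limb (TAL) and the distal convoluted tubule (DCT) are known for dense mitochondria.

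The data were droplet single-cell RNA libraries of kidney from C57BL/6 mice, 10 weeks old, in which FGF23, a bone hormone that acts on kidney cells carrying its co-receptor Klotho, was given. Recombinant human FGF23 was injected intraperitoneally at 10 µg per mouse, and the kidneys were taken at 1, 4 or 12 h; the 0 h group is labelled 0 µg. The name under which its data were deposited describes saline and 1 h instead, so whether and when it received a vehicle injection was not settled, and every ratio to 0 h below is a ratio to that library. Each group was 1 library, made from pooled male and female kidneys, so no group has replicates, the spread between animals is unknown, and no p-value is given. All intervals printed below are 95% exact intervals that cover counting error only.

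Cells were dissociated, with red cells lysed and dying cells removed before loading. The 4 libraries held 12245 to 13813 barcodes and 139675666 to 158838728 unique molecular identifiers (UMIs), and 8758 to 10131 cells per library were kept after filters and removal of called doublets. Pairs of libraries shared 36 to 57 barcodes. The 4 h library stood apart in its mitochondrially encoded UMIs, which were 25.99% of all UMIs over all its barcodes, against 33.4%, 32.7% and 32.1% at 0, 1 and 12 h. Cells were clustered without the members, the mitochondrially encoded genes (mt-) and the ribosomal protein genes, and each cluster was named after kidney markers, so "PT-like" stands for a cluster with proximal tubule markers. PT-like cells numbered 6732, 6343, 7368 and 6476 at 0, 1, 4 and 12 h, DCT-like cells 367, 329, 425 and 360, TAL-like cells 386, 369, 443 and 444, and intercalated-like (IC) cells 74, 109, 230 and 132. Mural-like cells numbered 28, 17, 39 and 7, so their values rest on few cells, above all at 12 h.

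Levels are CPM values: the UMIs of a gene summed over the cells of a class in 1 library, divided by all UMIs of those cells and put on the usual CPM scale. Each UMI tags the 3′ end of a transcript, so CPM was not divided by transcript length. The members together were highest in DCT-like cells in every library, with 77431, 72893, 81271 and 72868 CPM at 0, 1, 4 and 12 h, or 7.74%, 7.29%, 8.13% and 7.29% of all UMIs. IC-like cells came next, with a median over the libraries of 67762 CPM (63902 to 72553), followed by TAL-like cells with 59275 CPM (55725 to 63120). The order DCT, IC, TAL held in all 4 libraries. Connecting tubule-like (CNT), PT-like and principal-like (PC) cells had medians of 51900, 51619 and 50418 CPM, and their ranges over the libraries overlapped.

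Thin limb-like cells, the tubule class with the lowest level, had a median of 28386 CPM. Outside the tubule epithelium, fibroblast-like cells had 41645 CPM and mural-like cells 36558 CPM. T, macrophage, endothelial and monocyte-like cells had medians of 21929, 20045, 19986 and 19797 CPM, and their ranges overlapped. Natural killer-like cells had 22709 CPM, and their lowest library lay above every library of the macrophage-like and endothelial-like classes. B-like cells had 16735 CPM and neutrophil-like cells 12353 CPM, the lowest median. PT marker RNA was found in every class, at 0.66% to 21.0% of its level in PT-like cells outside the PT, and its part in the low levels of these classes was not tested.

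**Figure D1:**
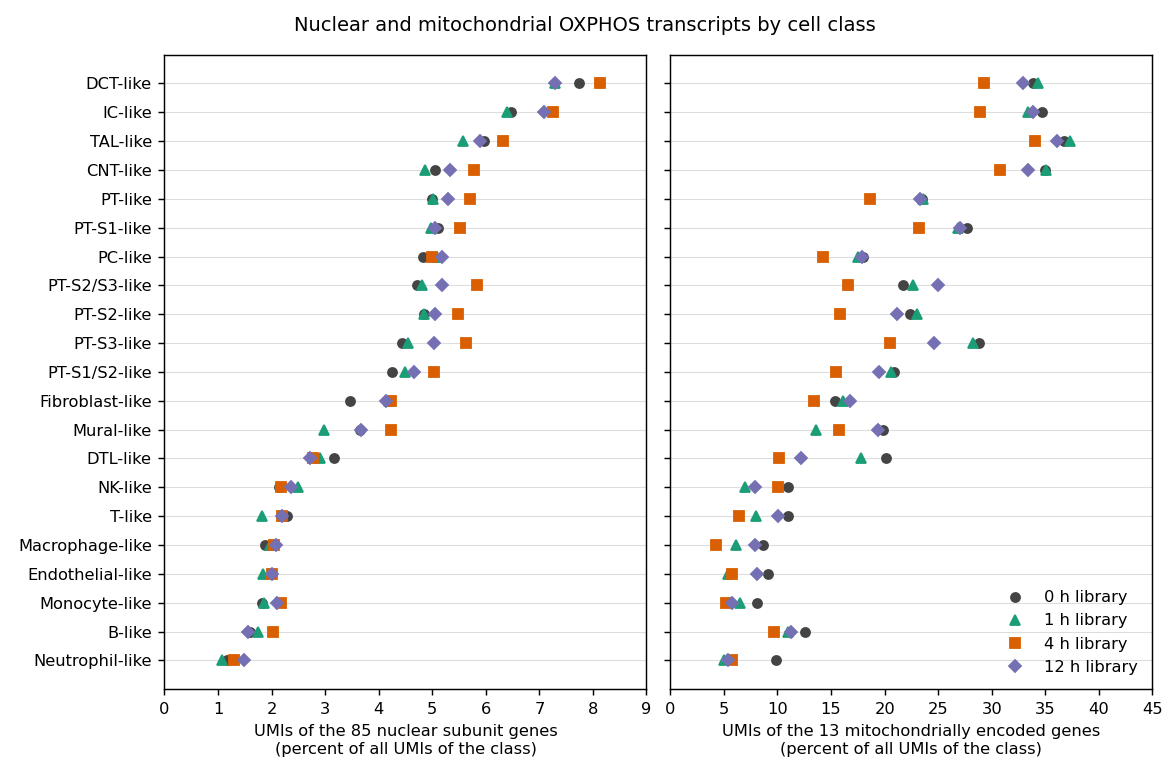
Left, UMIs of the 85 nuclear subunit genes as a percent of all UMIs of each cell class; right, the same for the 13 mitochondrially encoded genes; 1 point per library (0, 1, 4 and 12 h), 1 library per time, no replicates. DCT-like, IC-like and TAL-like cells lie farthest right in the left panel in all 4 libraries, and the 4 h point is the lowest mitochondrial share in every tubule class shown.

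The mitochondrially encoded share followed a similar order of classes. Over the 16 classes, the mt- share and the member level, computed on totals without the mt- genes, had a Pearson r of 0.95, 0.95, 0.96 and 0.96 and a Spearman rho of 0.88, 0.92, 0.93 and 0.90 in the 0, 1, 4 and 12 h libraries. These points share libraries and dissociation, and the values are given as a description. The ratio of the 2 differed between classes: TAL-like cells held 5.39 to 6.70 mt- UMIs per member UMI over the libraries, DCT-like cells 3.60 to 4.71 and PC-like cells 2.84 to 3.71. TAL-like cells therefore stood above DCT-like and PC-like cells in every library, with 34.0% to 37.3% of their UMIs from mt- genes. Connecting tubule-like cells held 5.33 to 7.19 mt- UMIs per member UMI, and stood above TAL-like cells at 0, 1 and 12 h.

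The share of each complex among member UMIs also differed by class. Complex I made up 33.7% to 34.3% of member UMIs in PT-like cells over the libraries, and 29.9% to 30.7% in DCT-like cells. Endothelial-like cells had the larger share of 36.5% to 38.0%. Complex V had the opposite order, with 28.5% to 29.0% in DCT-like, 26.9% to 27.2% in PT-like and 25.8% to 26.6% in endothelial-like cells. Complex IV made up 24.8% to 25.5% in PT-like and 27.4% to 28.7% in DCT-like cells. Complex II, the smallest, made up 2.49% to 2.76% in PT-like and 1.84% to 2.30% in DCT-like cells, and these ranges did not overlap.

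Single members were compared with their PT-like level in the same library, on totals without the mt- genes and for members with at least 50 UMIs over both classes in each library. In DCT-like cells 72 of 78 members were higher than in PT-like cells in all 4 libraries and none was lower in all 4, with a median log2 ratio of 0.71. In IC-like cells 72 of 78 were higher and 5 lower in all 4 libraries (median 0.59), and in TAL-like cells 66 were higher and 5 lower (median 0.47). CNT-like cells had 49 higher and 20 lower (median 0.20), and PC-like cells 14 higher and 48 lower (median −0.17). In endothelial-like cells 76 of 77 members were lower than in PT-like cells in all 4 libraries, with a median of −1.70, and the exception was Cox7a2l, chosen here after its values were seen. The same comparison was not made for all genes. These counts therefore do not show whether the members differed from other genes in this respect.

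Some members departed from the rest of the set in these segments. Cox7b, a small complex IV subunit, was 1.18 to 1.40 log2 units above PT-like cells in DCT-like cells over the libraries and 0.98 to 1.13 in TAL-like cells. Ndufv3, an accessory subunit of the NADH-binding module of complex I, was lower than in PT-like cells in TAL-like cells by −0.59 to −0.44 and in IC-like cells by −0.48 to −0.40, against medians of 0.47 and 0.59 for all members. Sdhb, the iron-sulphur subunit of complex II, was −1.10 to −0.77 in PC-like cells, while Sdha, the flavoprotein subunit, was −0.18 to 0.08 there. Cox7a2l was 0.09 to 0.16 in endothelial-like cells, near its PT-like level where the other members were lower. These 5 genes were singled out after their values were seen.

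The spread of single members over the named classes at 0 h, as highest over lowest CPM, was 8.06-fold at the median of the 75 members with at least 200 UMIs over the classes and no class at 0. Atp5g1, which encodes the c subunit of the ATP synthase rotor, had 2313 CPM in DCT-like and 105 CPM in neutrophil-like cells, a 22.0-fold span. Cox7a2l spanned 2.84-fold, the narrowest of these members. The members with a class at 0 UMIs were Cox6b2, Cox7a1, Cox6a2 and Atp5s, and 3 of these are restricted isoforms described further on.

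In PT-like cells at 0 h the most abundant members by complex were small or catalytic subunits. Ndufa4 led the genes named for complex I with 2203 CPM, followed by the accessory subunits Ndufb9 with 892 CPM and Ndufa13 with 812 CPM. In complex II the order was Sdhb with 489 CPM, Sdha with 316 CPM and Sdhc, a membrane anchor, with 305 CPM. The small complex III subunits Uqcr10, Uqcrq and Uqcrb had 998, 934 and 864 CPM. Cox8a, Cox4i1 and Cox6c of complex IV had 2036, 1892 and 1550 CPM, and in complex V the catalytic subunit gene Atp5b, its partner Atp5a1 and Atp5g1 had 1553, 1098 and 1054 CPM. Since tags are per transcript, these values compare transcripts, not proteins.

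All 85 members were found in the GENCODE annotation of mm10 by identifier. Of these, 27 have a near-identical copy of their last 300 bases in another gene, by at least 95% identity over at least 100 bases, and 6 share exon bases with another gene on the same strand. Reads of such genes may be split or dropped by the counting, so their levels are uncertain. They comprised 10 of the genes of complex V, 9 of complex I, 5 of complex IV and 3 of complex III, and no Sdh gene.

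The question set by the design is what changes in the kidney in the hours after FGF23. Each later library was compared with the 0 h library, which all 3 comparisons share. A member was counted as past the fold when its log2 CPM ratio to 0 h was at least 0.32 in size, and only members with at least 200 UMIs over the 2 libraries were counted. In PT-like cells 79 of the 85 members reached that minimum in each comparison. The 6 others were Cox4i2, Cox7b2, Cox8b, Cox8c, Ndufa4l2 and the second Atp5o identifier, all with at most 118 UMIs over the 2 libraries.

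In PT-like cells the members together stood at 49910, 50212, 57039 and 53026 CPM at 0, 1, 4 and 12 h. The 4 h library was the highest and the 0 h library the lowest. The mt- share of the same cells was 23.5%, 23.6%, 18.6% and 23.3%, lowest in the same 4 h library. With the mt- genes left out of the total, member levels were 65211, 65683, 70102 and 69140 CPM, so that the 4 h library was still highest and 12 h lay close to it. The exact intervals of these sums are under 60 CPM to either side and do not overlap between libraries, but they say nothing of the spread between mice.

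At 1 h the median log2 ratio of the 79 members in PT-like cells was 0.00, with 42 members higher and 37 lower than at 0 h. No member was past the fold up, against 4.07% of all genes tested, and none was past it down, against 4.55%. The values named here were small. Cox6b2 and Cox6a2, both low, had log2 ratios of −0.16 and −0.14, and the complex I genes Ndufa10 and Ndufv1 had −0.08 and −0.07. Ndufa2, Cox6c, Cox7a2l, Cox7a2 and Atp5l each had 0.08.

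At 4 h the median was 0.19, and 71 of 79 members were higher than at 0 h, beside a median of 0.05 over all genes tested. Past the fold, 6 members were higher, against 15.7% of all genes tested, and none was lower, against 11.4%. The shift was therefore small in each gene and shared by most of them. With mt- UMIs left out of the total the median was 0.10 and 66 of 79 members were higher, with 0 past the fold up (10.5% of all genes) and 1 down, Atp5s (16.4% of all genes). The 2 medians differ by the change of the mt- share alone, because CPM divides by all UMIs.

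Ndufb2, an accessory subunit of the complex I membrane arm, had 239, 246, 317 and 274 CPM in PT-like cells at 0, 1, 4 and 12 h. The 4 h value was the highest of the 4, with a log2 ratio of 0.41 (0.38 to 0.43). Ndufb2 and Ndufb8 each share exon bases and a near-identical 3′ end with a predicted gene model on the same strand (Gm42420 and Gm20538), so their counts are uncertain. Cox8a had 2036, 2081, 2559 and 2060 CPM, with only the 4 h library apart and a log2 ratio of 0.33. Ndufb8, at 656, 632, 825 and 675 CPM, and Ndufb9, at 892, 904, 1118 and 951 CPM, had the same ratio of 0.33 and the same single high library. Ndufs5, an accessory subunit with a near-identical copy, had 329, 325, 411 and 361 CPM, with a ratio of 0.32. Cox6b2 had 8.79, 7.87, 11.4 and 8.36 CPM, with a ratio of 0.37 (0.24 to 0.50).

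The members low at 4 h were of several kinds. Atp5s had 11.9, 12.1, 9.80 and 11.5 CPM, with a log2 ratio of −0.28 (−0.41 to −0.16) at 4 h. Ndufs1, a core subunit of the hydrophilic arm of complex I, had −0.08, and Atp5k and Cox5a had −0.05 and −0.04. By complex, the medians at 4 h were 0.20 for I, 0.21 for III, 0.19 for IV and 0.17 for V, and 0.03 for the 4 genes of complex II. Sdha and Sdhc had −0.03 and −0.04, and Sdhb and Sdhd 0.09 and 0.12.

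**Figure D2:**
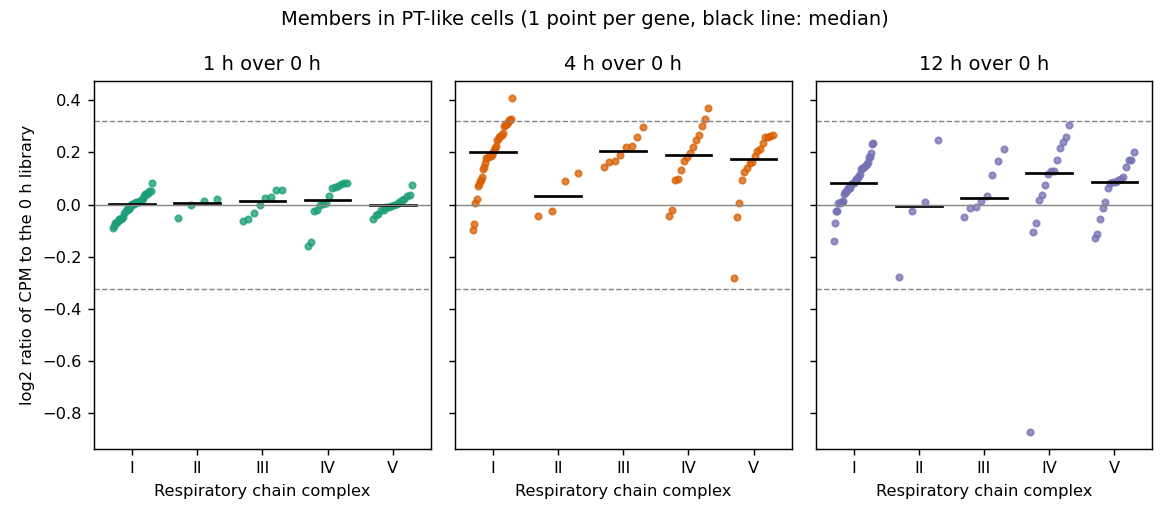
Log2 ratio of CPM to the 0 h library in PT-like cells for each member with at least 200 UMIs over the 2 libraries, by complex (x axis); 1 point per gene, black line the median, dashed lines the fold of 0.32 log2 units either way. At 1 h the points lie around 0, at 4 h most lie above 0 apart from complex II, and at 12 h the points spread, with Cox6a2 at −0.87.

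At 12 h the median in PT-like cells was 0.08, with 63 members higher and 16 lower. Over all genes tested the median was 0.02, and 52.7% were higher. No member was past the fold up, against 11.6% of all genes, and 1 was past it down, against 10.3%. That member was Cox6a2, with 4.20, 3.81, 4.14 and 2.30 CPM at 0, 1, 4 and 12 h and a log2 ratio of −0.87 (−1.13 to −0.62). Cox7a2l, Cox6c, Sdhd, Cox7b and Ndufa9 had the highest ratios at 12 h, of 0.30, 0.26, 0.25, 0.24 and 0.24. Cox6c had 1550, 1643, 1839 and 1854 CPM, so its 4 and 12 h values lay together above the other libraries. Sdhb had 489, 473, 521 and 403 CPM, lowest at 12 h with a ratio of −0.28. Ndufs8, a core iron-sulphur subunit of complex I, and the ATP synthase genes Atp5g2 and Atp5d had −0.14, −0.13 and −0.11. The anchor Sdhd and the iron-sulphur subunit Sdhb of the same enzyme thus lay on opposite sides of 0 at 12 h.

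Other gene lists in PT-like cells at 4 h give a frame for the members. Cytosolic ribosomal protein genes had a median of 0.23, with 18 of 84 past the fold up, and mitochondrial ribosomal protein genes 0.16, with 5 of 77 up. Assembly factors had 0.09, with 2 of 44 up and 1 down, the tricarboxylic acid cycle 0.10, with 0 of 14 up and 1 down, and fatty acid oxidation 0.06, with 2 of 14 up. Glycolysis had 0.12, with 3 of 14 up and 1 down, and the regulators of mitochondrial biogenesis 0.10, with 1 of 13 up and 2 down. The electron carriers had 0.17, with 1 of 5 up. The share of all genes past the fold was 15.7% up and 11.4% down, as above. The member median of 0.19 was below that of the cytosolic ribosomal proteins and above those of the other lists of nuclear genes given here.

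The size of the 4 h value differed along the proximal tubule. In PT-S1-like cells the median was 0.11, and 1 of 79 members, Ndufb2, was past the fold up, against 17.8% of all genes. In PT-S2-like cells it was 0.19, with 5 of 78 up against 15.7%, namely Ndufb2, Ndufv1, Ndufa13, Ndufb8 and Ndufa9. In cells with markers of both later segments (PT-S2/S3-like) it was 0.33, with 40 of 77 members up against 12.0% of all genes, and in PT-S3-like cells 0.32, with 37 of 75 up against 25.6%. With mt- UMIs left out of the total, 12 of 77 members were up in PT-S2/S3-like cells, against 7.13% of all genes, and 6 of 75 in PT-S3-like cells, against 11.4%. The difference between segments was not tested, as each time is 1 library. The segments also differed in the sex of their cells, as given further on, so segment and sex cannot be fully told apart.

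In PT-S2/S3-like cells the members stood at 47091, 48116, 58312 and 51870 CPM at 0, 1, 4 and 12 h, and in PT-S3-like cells at 44368, 45563, 56274 and 50277 CPM. In both, 4 h was the highest library and 12 h the second. The mt- share in PT-S3-like cells was between 20.5% and 28.8% over the libraries and was lowest at 4 h. Of complex I genes, 24 of 37 were past the fold up in PT-S2/S3-like cells at 4 h, as were 4 of 8 of complex III, 6 of 12 of complex IV, 6 of 16 of complex V and 0 of 4 of complex II. Ndufb2 had 227, 240, 333 and 271 CPM there, a 4 h ratio of 0.55, and Cox8a had 2101, 2193, 2867 and 2279 CPM, a ratio of 0.45. At 12 h the PT-S2/S3-like median was 0.14, with 3 of 77 members up (Cox6c, Cox7b and Ndufb3) against 6.00% of all genes.

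The makeup of these classes changed between libraries: PT-S2/S3-like cells numbered 1990, 1698, 1399 and 977. Within single clusters, 18 proximal clusters had at least 20 cells in both the 0 and 4 h libraries. In the 14 of these with a call of S1, S2, S2/S3 or S3, the 4 h median was above 0. It was 0.07 to 0.20 in the 6 PT-S1-like clusters, 0.08 to 0.27 in the 3 PT-S2-like clusters, 0.25 to 0.27 in the 3 PT-S2/S3-like clusters, and 0.32 and 0.38 in the 2 PT-S3-like clusters. A cluster with markers of both S1 and S2 had 0.25. In the 3 clusters without a segment call, the medians were 0.04, −0.01 and 0.00, so the 4 h value was not found throughout the PT-like class. The mt- share was lower at 4 h than at 0 h in each of the 18 clusters, these 3 included. The cluster medians use totals with mt- UMIs, so a lower mt- share raises them by itself. Cluster medians without mt- UMIs are not given here. For PT-S1-like cells as a whole, leaving mt- UMIs out took the 4 h median from 0.11 to 0.02. Holding the cluster makeup at that of the 0 h library, an alternative chosen after seeing the data, gave 0.17 for PT-like and 0.26 for PT-S2/S3-like cells at 4 h. At 12 h the same step moved the PT-S2/S3-like median from 0.14 to 0.04 and the PT-like median from 0.08 to 0.03.

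**Figure D3:**
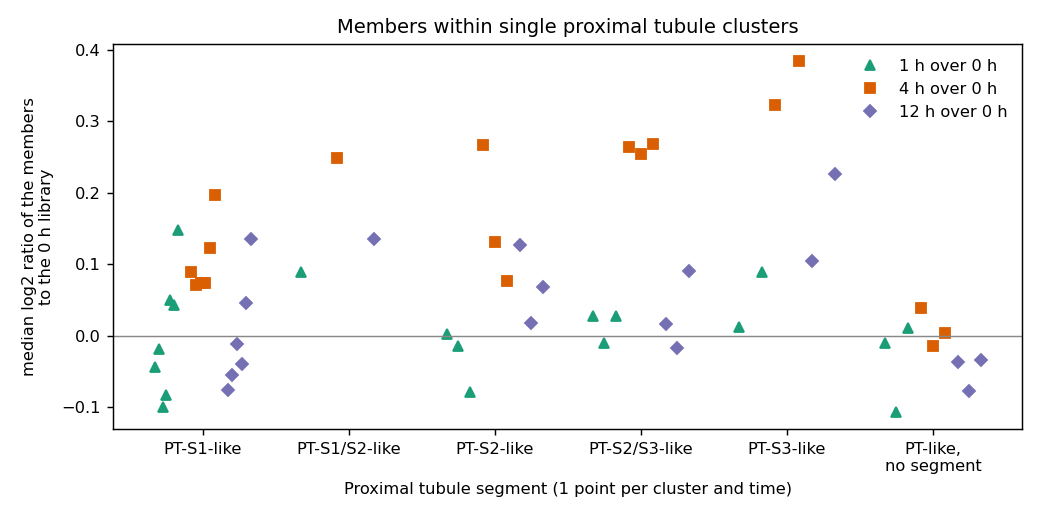
Median log2 ratio of the members to the 0 h library (y axis) in each proximal tubule cluster, by segment (x axis); 1 point per cluster and time, clusters with at least 20 cells in both libraries. The 4 h points lie above 0 in all clusters with a segment call, from 0.07 in PT-S1-like to 0.38 in PT-S3-like clusters, and near 0 in the 3 without one, while 1 h and 12 h points lie on both sides of 0 in PT-S1-like clusters. Totals include mt- UMIs, and the mt- share was lower at 4 h than at 0 h in each cluster.

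Male and female cells were pooled in each library and were told apart by Xist or Y-linked UMIs. The 4 h median of PT-like cells was 0.25 when only male-called cells were used, with 18 members past the fold up, and 0.09 when only female-called cells were used, with 1. At 12 h the medians of the sexes were 0.11 and −0.01. PT-S2/S3-like cells at 4 h included 914 male-called and 10 female-called cells, against 950 and 1155 in PT-S1-like cells. The PT-like medians of the sexes therefore also differ in segment makeup. In PT-S2-like cells at 0 h, 68 of 77 members were higher in female-called than in male-called cells, with a median log2 ratio of 0.20, and at 4 h 43 of 78, with a median of 0.02. Over all genes tested the medians there were 0.08 at 0 h and 0.11 at 4 h. In PT-S3-like cells at 0 h the direction was opposite, with 13 of 75 higher in female-called cells and a median of −0.19. The median over all genes lay the same way there, at −0.14, so much of that value was not particular to the members. The PT-S3-like medians were −0.13, −0.16 and 0.01 at 1, 4 and 12 h, with 41 of 75 higher in female-called cells at 12 h. Over all genes they were −0.06, −0.05 and 0.01. In both segments the sexes fell into nearly separate clusters: PT-S2-like clusters 10 and 18 held 1324 and 809 female-called and 6 and 0 male-called cells, and cluster 2 held 8 and 1718. PT-S3-like cluster 24 held 213 and 6, and cluster 23 held 4 and 340. These contrasts are therefore also contrasts between clusters, and sex and cluster cannot be told apart. The 4 h medians to 0 h were 0.13 and 0.08 in clusters 10 and 18 and 0.27 in cluster 2. In PT-S3-like cells they were 0.38 in cluster 24 and 0.32 in cluster 23. How many mice of each sex entered a library is not given in the sources used here, and the sex differences were not tested.

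In DCT-like and TAL-like cells the 1 h medians lay below 0. PT-S1-like cells went the same way, with a 1 h median of −0.04 and 62 of 79 members lower. DCT-like cells had a median of −0.09 at 1 h, with 75 of 76 members lower than at 0 h, but none was past the fold down, against 6.69% of all genes. TAL-like cells had −0.09, with 67 of 76 lower and 1, Cox7a1, past the fold down, against 3.14%. Of all genes tested at 1 h, 44.7% were higher than at 0 h in DCT-like, 49.9% in TAL-like and 52.6% in PT-S1-like cells. In male-called TAL-like cells alone the 1 h median was 0.01. At 4 h the TAL-like median was 0.09 with 0 of 76 up, against 10.3% of all genes, and the DCT-like median 0.07 with 1 of 76 up, against 19.7%. Neither 4 h direction was stable: in cells of at most 25% mt- UMIs the medians were −0.11 and −0.06, and with mt- UMIs left out of the total the DCT-like median was −0.03. The median mt- share per cell at 4 h was 34.0% in TAL-like and 29.6% in DCT-like cells. The 25% limit therefore kept only a minority of these cells. Ndufb2 was the member past the fold up in DCT-like cells, with 351, 350, 476 and 392 CPM and a ratio of 0.44. Cox7a2l lay the other way, with 215, 187, 164 and 194 CPM and a ratio of −0.39.

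DCT-like cells at 12 h had a median of −0.12, beside 0.01 over all genes, of which 50.9% were higher. In them 59 of 76 members were lower and 6 past the fold down, against 16.2% of all genes. Of these 6, 3 belong to complex II. Sdhb had 617, 528, 612 and 408 CPM at 0, 1, 4 and 12 h, lowest at 12 h, with a log2 ratio of −0.60 (−0.69 to −0.50). Sdha had 556, 525, 479 and 421 CPM, with −0.40 (−0.50 to −0.31), and Sdhd 315, 272, 277 and 245 CPM, with −0.36 (−0.49 to −0.24). Sdhc had 295, 282, 278 and 267 CPM, with −0.14 (−0.27 to −0.02). For each of these 4 genes the 12 h library was the lowest of the 4.

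The other 3 members past the fold down in DCT-like cells at 12 h were Cox7a1, at −0.42, Ndufb10, at −0.34, and Ndufv3, at −0.34. Ndufb6, an accessory subunit of complex I, was the member past the fold up, with 473, 471, 571 and 603 CPM and a ratio of 0.35. Of all genes tested in DCT-like cells at 12 h, 18.1% were past the fold up and 16.2% down. The tricarboxylic acid cycle list had a median of −0.17 in these cells, with 5 of 14 past the fold down, and fatty acid oxidation −0.27, with 4 of 12 down and 1 up. The cytosolic ribosomal protein genes had 0.34, with 45 of 82 up. In PT-S1-like cells Sdhb was also lowest at 12 h, with 432, 413, 430 and 325 CPM and a ratio of −0.41.

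In other tubule classes the 4 h medians were 0.20 in CNT-like cells, with 8 of 76 members up against 15.4% of all genes, and 0.18 in IC-like cells. With mt- UMIs left out of the total, these medians were 0.11 and 0.06. PC-like cells had 0.05 at 4 h, below the median of 0.07 over all genes, and −0.01 without mt- UMIs. At 12 h IC-like cells had 0.14, with 4 of 76 up against 9.11%, and PC-like cells 0.09, with 5 of 75 up against 9.60%. In these 3 counts the members' share was below that of all genes. At 12 h, Ndufv1, Ndufa9 and Ndufa1 were up in both IC-like and PC-like cells, Uqcrc2 in IC-like cells, and Ndufa10 and Cox6a1 in PC-like cells. Endothelial-like cells had −0.12 at 1 h, with 5 of 60 members past the fold down (Atp5g3, Uqcrq, Ndufa12, Cox5a and Ndufa13), against 4.08% of all genes. PT marker RNA in these cells was 5.77% of its PT-like level at 0 h and 2.59% at 1 h, and the mt- share 9.15% and 5.35%; their part in the member values was not tested. The genes of this paragraph were named after their values were seen.

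In T-like and B-like cells the members moved together with PT marker RNA. T-like cells had a median of −0.42 at 1 h, with 40 of 63 members past the fold down, against 13.7% of all genes. The summed PT markers in those cells were 11.2% of their PT-like level at 0 h and 1.60% at 1 h. B-like cells had 0.38 at 4 h, with 15 of 27 members up, against 14.8%, while PT markers there were 3.52% of the PT-like level at 0 h and 21.0% at 4 h. With called doublets kept, the T-like median at 1 h was −0.19 and the B-like median at 4 h was 0.07. The part of PT RNA and of doublets in these member values was not tested.

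The 13 mitochondrially encoded subunits did not move as one group at 4 h. In PT-like cells their median log2 ratio was −0.30, with 6 past the fold down and 3 up. mt-Nd1, of complex I, had 10503, 10613, 6799 and 10784 CPM at 0, 1, 4 and 12 h, a single low library with a ratio of −0.63. mt-Co1, the catalytic subunit of complex IV, had 26626, 26834, 18204 and 23563 CPM, with −0.55. In contrast, mt-Nd4l had 1616, 1647, 2401 and 1257 CPM, with 0.57, and mt-Atp8 had 230, 262, 415 and 325 CPM, with 0.85. mt-Nd6, encoded on the other strand of the mitochondrial genome, had 98.9, 96.0, 139.3 and 88.7 CPM, with 0.49.

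The genes named above went the same way in most or all of the 16 cell classes. At 4 h mt-Atp8 was higher in 16 of 16, mt-Nd4l in 13 and mt-Nd6 in 13, whereas mt-Nd1, mt-Nd2, mt-Nd3, mt-Co1, mt-Co2, mt-Co3 and mt-Cytb were lower in 16 of 16. The remaining genes were divided: mt-Atp6 was lower in 14 classes, mt-Nd5 was higher in 10 and mt-Nd4 in 8. The classes share the library, so these counts describe that library. mt-Nd4l and mt-Nd4 lie on 1 transcript with overlapping reading frames, as do mt-Atp8 and mt-Atp6. Per 1000 UMIs of mt-Nd4, PT-like cells held 91.7, 90.5, 143 and 71.4 of mt-Nd4l at 0, 1, 4 and 12 h. Per 1000 UMIs of mt-Atp6 they held 4.56, 5.18, 9.36 and 6.56 of mt-Atp8. At 4 h the lowest class, with 6.72 mt-Atp8 per 1000, lay above the highest class at 0 h, with 5.83. Both ratios within 1 transcript were thus highest in the 4 h library.

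**Figure D4:**
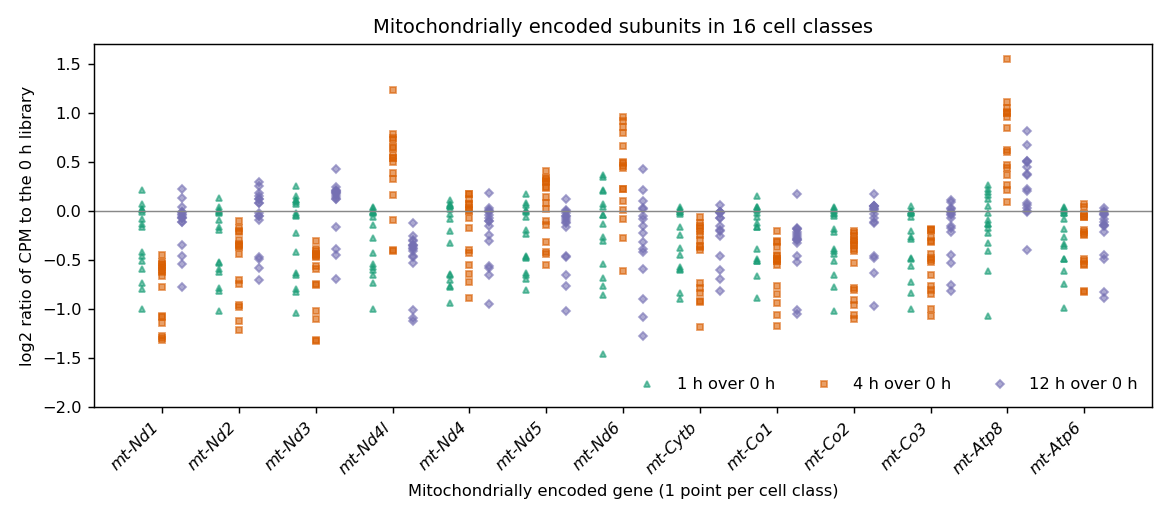
Log2 ratio of CPM to the 0 h library (y axis) for each of the 13 mitochondrially encoded genes (x axis), 1 point per cell class and time, 16 classes. At 4 h all 16 points of mt-Atp8 lie above 0, and all 16 points of mt-Nd1, mt-Co1 and mt-Cytb lie below it.

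Several complex IV subunits exist as pairs, a form found in most tissues and a restricted one. Of the restricted forms, Cox4i2 is linked to oxygen sensing, Cox6a2, Cox7a1 and Cox8b are the forms of heart and skeletal muscle, Cox6b2, Cox7b2 and Cox8c are testis forms, and Ndufa4l2 is a hypoxia-induced relative of Ndufa4. The sequences below are the 250 bases before the annotated start of Cox8a and Cox8b, of Cox7a2 and Cox7a1, and of Cox6a1, shown because the members of each pair differed in the cells that held them. They come from RefSeq on GRCm38.p6, 5′ to 3′ on the strand of the gene. Capitals mark matches, on either strand, to the cores CCGGAAG (ETS family, such as GABP), GCGCANGC (NRF1), ATGGCG (YY1) and GGGCGG (the GC box of SP1).
Cox8a (chr19:7217617-7217866, minus strand): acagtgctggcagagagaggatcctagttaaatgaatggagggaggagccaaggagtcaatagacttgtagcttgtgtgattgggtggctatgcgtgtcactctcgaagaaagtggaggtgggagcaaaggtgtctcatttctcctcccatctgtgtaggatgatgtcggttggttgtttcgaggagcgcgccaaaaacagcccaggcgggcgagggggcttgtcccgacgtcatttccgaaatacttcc
Cox8b (chr7:140900447-140900696, minus strand): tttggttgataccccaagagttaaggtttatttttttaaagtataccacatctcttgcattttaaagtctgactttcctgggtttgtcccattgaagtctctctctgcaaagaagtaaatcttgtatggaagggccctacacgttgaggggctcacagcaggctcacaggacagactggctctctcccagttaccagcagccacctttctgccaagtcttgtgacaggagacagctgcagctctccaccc
Cox7a2 (chr9:79759854-79760103, minus strand): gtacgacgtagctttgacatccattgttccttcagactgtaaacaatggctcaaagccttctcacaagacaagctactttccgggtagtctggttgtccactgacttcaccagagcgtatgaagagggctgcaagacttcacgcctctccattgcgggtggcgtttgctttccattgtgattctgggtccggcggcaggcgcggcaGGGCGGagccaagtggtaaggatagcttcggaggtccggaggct
Cox7a1 (chr7:30183921-30184170, plus strand): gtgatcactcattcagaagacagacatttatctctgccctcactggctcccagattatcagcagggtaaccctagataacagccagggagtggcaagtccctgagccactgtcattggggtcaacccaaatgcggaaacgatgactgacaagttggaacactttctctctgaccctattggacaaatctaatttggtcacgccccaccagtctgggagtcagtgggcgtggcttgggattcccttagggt
Cox6a1 (chr5:115348959-115349208, minus strand): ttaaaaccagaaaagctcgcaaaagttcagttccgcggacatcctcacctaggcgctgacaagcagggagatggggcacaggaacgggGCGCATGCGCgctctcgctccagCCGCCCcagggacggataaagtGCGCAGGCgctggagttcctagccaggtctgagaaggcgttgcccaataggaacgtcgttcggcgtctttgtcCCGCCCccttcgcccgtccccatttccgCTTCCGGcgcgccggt

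Of these 5 promoters, those of Cox8a, Cox8b and Cox7a1 held none of the 4 cores, Cox7a2 held 1 GC box, and Cox6a1 held 1 ETS core, 3 NRF1 matches, of which 2 overlap, and 2 GC boxes. A promoter was found for 67 of the 84 member symbols. Over these, 17.9% held the ETS core, against 7.83% of all 27025 gene symbols with a promoter of the same length, and 26.9% held the NRF1 core, against 9.38%. The YY1 core was in 11.9%, against 6.53%, and the GC box in 35.8%, against 35.4%. The estrogen-related receptor element AAGGTCA was in 7.46%, against 4.70%, the hypoxia core ACGTG in 19.4%, against 18.5%, CACGTG in 7.46%, against 6.86%, and TATAAA in 8.96%, against 14.3%. CACGTG contains ACGTG, so these overlap. Median GC content was 56% for members and 52% for all. A match is a description of letters, not a site shown to be used.

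Most restricted isoforms were concentrated in few cell classes, while Cox7a1 and Cox6b2 were found at low levels in many. Cox4i2 (chr2:152754173-152765037, plus strand, mm10) was found in mural-like cells, with 48, 25, 73 and 6 UMIs at 0, 1, 4 and 12 h, or 283, 302, 248 and 133 CPM. At 12 h there were only 7 such cells, with an interval of 48.7 to 289 CPM that overlaps the others. At 0 h it had 19.8 UMIs per 100 UMIs of its partner Cox4i1 there. In PT-like cells it had 1, 3, 0 and 0 UMIs in all. Ndufa4l2 (chr10:127514967-127517154, plus strand) was found in the same class, with 71, 57, 83 and 22 UMIs, or 418, 689, 282 and 486 CPM, and had 0 UMIs in endothelial-like cells in all 4 libraries. Mural-like cells carry markers of pericytes and smooth muscle, the vessel wall cells in which both genes are known.

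Among the named classes, Cox7a1 (chr7:30184144-30186078, plus strand) was highest in IC-like cells, at 170, 200, 181 and 200 CPM. These values had no consistent order of libraries beyond the counting intervals. Cluster 37, which was left unnamed, had a similar level of 158 CPM over the libraries, from 665 UMIs in 112 of 117 cells. PC-like cells had 93.8, 112, 78.1 and 94.0 CPM, and PT-like cells 24.4, 24.5, 26.1 and 22.7 CPM. Endothelial-like cells had 2.28 to 2.92 CPM, from 2 to 5 UMIs per library. Over PT-like cells of the same library, IC-like cells were higher by a median of 3.13 log2 units (2.99 to 3.35). The widely expressed partner Cox7a2 outnumbered it in IC-like cells, which held 10.99, 12.8, 10.4 and 11.9 Cox7a1 UMIs per 100 of Cox7a2.

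The 2 IC-like clusters differed, a split made after values were seen. Cluster 34, with 1367 CPM of Slc4a1, the chloride-bicarbonate exchanger of type A intercalated cells, had 302, 278, 231 and 275 CPM of Cox7a1. Cluster 26, with 1512 CPM of Slc26a4, the exchanger pendrin of non-A cells, had 124, 158, 157 and 173 CPM. The values of the 2 clusters did not overlap over the 4 libraries. Cox7a2 differed less, with 1701 and 1632 CPM over all libraries.

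Cox6a2 (chr7:128205435-128206387, minus strand) was found mainly in PT-S1-like cells, in a PT-like cluster without a segment call and in a few cells of the macrophage-like class. Over the 4 libraries, the PT-S1-like clusters had 2.92 to 16.4 CPM and the cluster without a segment call had 17.9 CPM, from 112 UMIs in 95 of 1232 cells. Natural killer-like cells had 5 UMIs in 3 cells. PT-S1-like cells held 326, 300, 366 and 143 UMIs at 0, 1, 4 and 12 h, or 13.03, 10.7, 10.4 and 4.86 CPM. The 12 h library was the lowest, with a log2 ratio to 0 h of −1.42 (−1.72 to −1.13). Female-called PT-S1-like cells had 12.2, 7.88, 4.59 and 3.45 CPM and male-called ones 13.3, 12.95, 15.7 and 5.99 CPM. Both were lowest at 12 h and differed most at 4 h. Cluster 6 of this segment, with 1118 female-called and 18 male-called cells, had 2.92 CPM over the libraries. Clusters 3 and 8, with more male-called than female-called cells, had 16.4 and 8.08 CPM. The sex contrast is therefore in part also a contrast between clusters. PT-S3-like cells had 1 UMI in 1034 cells, and DCT-like and TAL-like cells had 0 UMIs in all 4 libraries. Its partner Cox6a1 was far more abundant, with 2.12 Cox6a2 UMIs per 100 of Cox6a1 in PT-S1-like cells at 0 h and 0.717 at 12 h.

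In the macrophage-like class all 299 Cox6a2 UMIs lay in 28 of the 43 cells that had a UMI of Siglech, a surface lectin of plasmacytoid dendritic cells. The 275 other cells of the class had 0 UMIs, where 3 counts would be 1.41 CPM. Median depth was 6209 and 6507 UMIs per cell. Cells with Siglech had 947 CPM at 0 h and 952 CPM at 12 h, and at 1 and 4 h only 2 and 3 such cells were present. This split was made after the values were seen.

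Cox8b (chr7:140898945-140900446, minus strand) was found in PT-S3-like cells, with 65, 39, 36 and 53 UMIs at 0, 1, 4 and 12 h. Of the 196 UMIs in PT-like cells, 193 were in cluster 24. Female-called PT-S3-like cells held 52, 30, 14 and 32 UMIs, or 51.2, 40.7, 10.2 and 24.0 CPM, lowest at 4 h. Male-called PT-S3-like cells held 1 UMI in 346 cells, against 128 UMIs in 44 of 217 female-called cells, at median depths of 21460 and 20272 UMIs per cell. Of these male-called cells 340 were in cluster 23, and of the female-called ones 213 were in cluster 24, the same separation as above. Endothelial-like cells, as a background, held 5 UMIs in 1787 cells, or 1.08 CPM. Its partner Cox8a had 2559 CPM in cluster 24, so Cox8b was 0.944 per 100 Cox8a UMIs there.

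Cox6b2 (chr7:4751792-4753094, minus strand) was low and widely spread in the tubule. In PT-S2-like cells, female-called cells had 30.2, 17.1, 30.8 and 16.3 CPM and male-called cells 3.78, 4.79, 4.55 and 3.09 CPM. The female-called value was above the male-called one in every library, with no overlap of the values. The sexes lay in different PT-S2-like clusters, as given above, so this is also a difference between clusters. In PT-S1-like cells the 2 were close, at 11.7 and 12.8 CPM over all libraries. The small PT-S1-like cluster 41, picked out after its value was seen, had 75.9 CPM, from 120 UMIs in 46 of 95 cells. DCT-like cells had 8.79, 18.0, 18.1 and 17.0 CPM, from 31, 66, 86 and 65 UMIs, lowest at 0 h. Cox7b2 had 2 UMIs in all PT-like cells and Cox8c had 0.

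**Figure D5:**
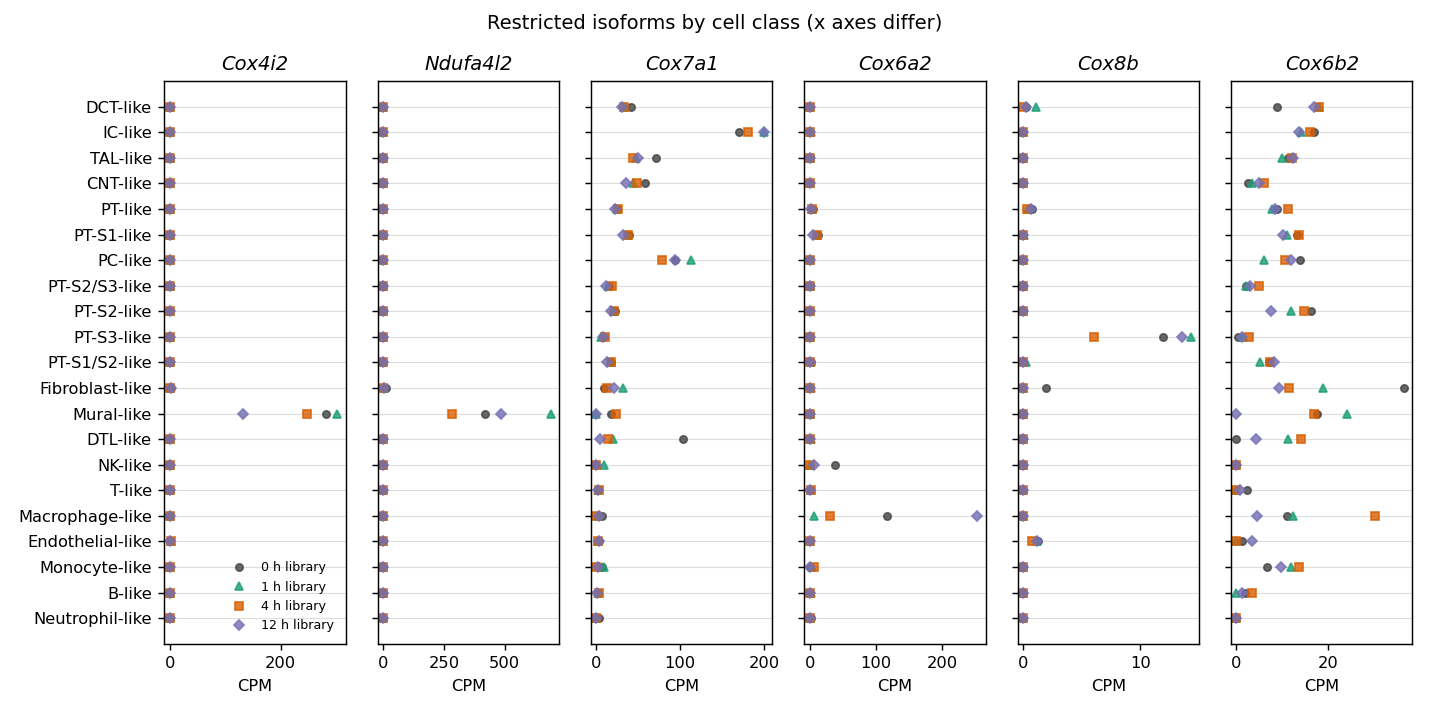
CPM (x axes, which differ between panels) of 6 restricted isoforms in each cell class (y axis); 1 point per library, 1 library per time. Cox4i2 and Ndufa4l2 lie above 100 CPM in mural-like cells only, Cox7a1 is highest in IC-like cells, Cox6a2 in macrophage-like cells at 0 and 12 h, and Cox8b in PT-S3-like cells.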

How the data were processed

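The 4 droplet libraries (3′ tags with UMIs) were used. The authors deposited unnormalised UMI counts for each gene in each barcode; Cell Ranger 3.1.0, STAR, Seurat and mm10 are listed per the submitters' processing notes, without their settings. From these counts, cells with at least 300 genes and at most 50% mitochondrially encoded UMIs were kept, which left 9477 to 11120 cells per library with a median of 9422.5 to 11666 UMIs. Doublets, called from the neighbours of simulated doublets (7.59% to 8.89% of cells), were removed. Cells were clustered on 2039 variable and marker genes without the members, mt- genes, ribosomal protein genes and sex genes (30 principal components, 20 neighbours, Leiden resolution 1.5), giving 44 clusters, of which 6 stayed unnamed. Naming thresholds were set after the clusters were seen, so the cell classes are rebuilt names. A cell was female-called with an Xist UMI and no UMI of Ddx3y, Eif2s3y, Kdm5d or Uty, and male-called in the reverse case.

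Counts of the cells of a class were added up within a library and expressed as CPM. With 1 library per group there was no test: ratios to 0 h carry exact conditional binomial intervals, levels exact Poisson intervals and shares exact Clopper-Pearson intervals (95%), all for counting error only, and 3 counts were taken as the floor of a value of 0. Genes needed at least 200 UMIs over the 2 libraries, and clusters at least 20 cells. Ribosomal S6 kinases were left out of the ribosomal list. The members and lists were chosen with earlier results of these data known. Named were, in PT-like cells, the 5 highest and 5 lowest members at each time and the 3 most abundant of each complex, all Sdh genes, the restricted isoforms, and the 5 members varying most over classes; others are marked where they appear, and 1 gene that the rule names is not reported here. The scripts were tested on simulated data. Alternatives were totals without mt- or ribosomal UMIs, other UMI minimums, folds, mt- limits and depth limits, equal cell weights, kept doublets, centring, sex-called cells, and a fixed cluster makeup, the last chosen after seeing the data. Python 3.11.15, NumPy 2.4.6, SciPy 1.17.1, pandas 2.3.3, scanpy 1.11.5, scikit-learn 1.9.0, leidenalg 0.10.2, matplotlib 3.10.9 and BLAST 2.17.0 were used.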

Additional observations from a re-analysis of the deposited data

Results flagged for a closer look

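Member medians lay on opposite sides of 0 in different classes of the same library, and these differences were not tested. At 1 h the median log2 ratio to 0 h was 0.078 in PC-like cells, against −0.093 in TAL-like, −0.086 in DCT-like and −0.044 in CNT-like cells, and −0.12 in endothelial-like cells. In endothelial-like cells PT marker RNA was 5.77% of its PT-like level at 0 h and 2.59% at 1 h. The 12 h values were 0.083 in PT-like, 0.065 in CNT-like, 0.091 in PC-like and 0.14 in IC-like cells, against −0.12 in DCT-like cells.

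Outside the named classes, Cox4i2 had 41.1 CPM and Ndufa4l2 81.1 CPM over the 4 libraries in cluster 29, which was left unnamed and held 362 cells. These UMIs lay in 30 and 43 of its cells.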

How the results depend on the processing

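The median log2 ratio of the members to 0 h, and the count of members past the fold in PT-like cells, were recomputed with 1 choice changed at a time; values that moved by more than the counting interval, or counts by more than 1.5 times, follow, and the cause of each shift was not tested beyond what the choice itself removes. With mt- UMIs left out of the total, medians were 0.099 at 4 h in PT-like cells, −0.063 at 1 h, 0.020 at 4 h in PT-S1-like cells, 0.23 at 4 h, 0.20 at 12 h in PT-S2/S3-like cells, 0.033 at 4 h in TAL-like cells and −0.026 at 4 h in DCT-like cells. Counts in PT-like cells became 0 up at 4 h and 1 down at 4 h. With ribosomal protein UMIs left out as well, medians were 0.11 at 4 h in PT-like cells, 0.031 at 4 h in PT-S1-like cells, 0.25 at 4 h, 0.22 at 12 h in PT-S2/S3-like cells, 0.043 at 4 h in TAL-like cells and −0.022 at 4 h in DCT-like cells. Counts in PT-like cells became 1 up at 4 h and 1 down at 4 h. With cells of at most 25% mt- UMIs, medians were 0.15 at 4 h in PT-like cells, 0.066 at 4 h in PT-S1-like cells, 0.21 at 12 h in PT-S2/S3-like cells, −0.25 at 1 h, −0.11 at 4 h, −0.13 at 12 h in TAL-like cells and −0.13 at 1 h, −0.061 at 4 h, −0.16 at 12 h in DCT-like cells. Counts in PT-like cells became 1 down at 4 h. With a limit of 35%, medians were 0.18 at 12 h in PT-S2/S3-like cells, −0.13 at 1 h, 0.047 at 4 h in TAL-like cells and −0.14 at 1 h, −0.000167 at 4 h, −0.17 at 12 h in DCT-like cells. With every cell weighted equally, medians were 0.16 at 4 h in PT-like cells, −0.019 at 1 h, 0.000918 at 12 h in PT-S1-like cells, 0.17 at 12 h in PT-S2/S3-like cells, 0.12 at 4 h, 0.029 at 12 h in TAL-like cells and −0.11 at 1 h in DCT-like cells. PT-like counts were 2 up at 4 h and 1 up at 12 h. With ratios centred on the median of all genes, medians were −0.0098 at 1 h, 0.14 at 4 h in PT-like cells, 0.048 at 4 h, −0.073 at 12 h in PT-S1-like cells, 0.36 at 4 h, 0.32 at 12 h in PT-S2/S3-like cells, 0.051 at 4 h in TAL-like cells and −0.063 at 1 h in DCT-like cells. PT-like counts were 2 up at 4 h and 1 down at 4 h. In male-called cells, medians were 0.024 at 1 h, 0.25 at 4 h, 0.11 at 12 h in PT-like cells, 0.010 at 1 h, 0.16 at 4 h, -9.79e-05 at 12 h in PT-S1-like cells, 0.0097 at 1 h, 0.15 at 4 h in TAL-like cells and −0.031 at 1 h, 0.13 at 4 h in DCT-like cells. PT-like counts were 18 up at 4 h and 1 up at 12 h. In female-called cells, medians were −0.061 at 1 h, 0.093 at 4 h, −0.012 at 12 h in PT-like cells, −0.092 at 1 h in PT-S1-like cells and −0.15 at 1 h, −0.020 at 4 h in TAL-like cells. PT-like counts were 2 down at 1 h, 1 up at 4 h, 2 down at 4 h and 2 down at 12 h. With the cluster makeup held at 0 h, chosen after seeing the data, medians were −0.011 at 1 h, 0.033 at 12 h in PT-like cells and 0.26 at 4 h, 0.035 at 12 h in PT-S2/S3-like cells. With a minimum of 50 UMIs, the counts in PT-like cells were 1 down at 1 h and 1 down at 4 h. With a minimum of 1000 UMIs, the counts in PT-like cells were 0 down at 12 h. At 1.1-fold, the counts in PT-like cells were 2 down at 1 h, 55 up at 4 h, 1 down at 4 h, 23 up at 12 h and 3 down at 12 h. At 1.5-fold, the counts in PT-like cells were 0 up at 4 h.

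The 4 h medians of PT-like, PT-S1-like and PT-S2/S3-like cells and the 12 h median of PT-S2/S3-like cells stayed above 0 in every alternative run, and the 1 h and 12 h medians of DCT-like cells stayed below 0. The other medians of these classes, which include those of TAL-like cells and the 12 h median of PT-like cells, took either sign. Requiring at least 2000 UMIs per cell or keeping called doublets moved none of these values. In other classes, keeping called doublets gave medians of 0.025 at 1 h and 0.066 at 12 h in PC-like cells, 0.020 at 1 h in IC-like cells, −0.11, 0.073 and −0.10 at 1, 4 and 12 h in B-like cells and −0.19, 0.17 and 0.013 in T-like cells, and the PT-S1/S2-like median at 1 h moved as well. The limit of 2000 UMIs moved the T-like median at 12 h, to −0.14. Over all alternatives run, medians were 0.024 to 0.26 at 4 h in CNT-like, from 0.058 to 0.23 (4 h) and from 0.031 to 0.24 (12 h) in IC-like, 0.032 to 0.11 at 12 h in PC-like, −0.19 to −0.061 at 1 h in endothelial-like, −0.47 to −0.17 at 1 h in T-like and 0.073 to 0.42 at 4 h in B-like cells. No paired analysis was possible because each group is 1 library, and for the same reason no library could be left out. Genes under the UMI minimum, classes of few cells and the unknown spread between mice limit what these libraries can show.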
